A study of Mus musculus with 8 samples.

Results

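The genes described here are the core of the interferon gamma signalling pathway in mouse cecal tumors. They are Ifng, Ifngr1, Ifngr2, Jak1, Jak2, Stat2, Irf9, Irf1 and Socs1, taken from the deposited expression table by their gene symbols. All 9 were found, each with 1 row, among 34586 symbols. Interferon gamma is a cytokine released mainly by activated T cells and natural killer (NK) cells. It binds a receptor built from Ifngr1, the ligand-binding chain, and Ifngr2, the signalling chain, which bring the kinases Jak1 and Jak2 together. The kinases activate a STAT transcription factor that binds gamma activated sites (GAS) in target genes, among them Irf1, itself a transcription factor, and Socs1, which inhibits the kinases in return. Stat2 and Irf9 form the complex used by type I interferons, which binds interferon-stimulated response elements (ISRE), and interferons of both types can raise their expression.

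Tumors were explanted from the cecum of C57BL/6 mice and profiled by RNA sequencing. They model GIST (gastrointestinal stromal tumor), which shares its defining genes with the interstitial cells of Cajal, pacemakers of gut movement. The groups were 4 libraries labelled tamoxifen and 4 labelled vehicle. All mice of both groups carried the same alleles: 1 Kit copy with the V558Delta mutation, Etv1 flox/flox, and CreERT2 at Rosa26 on both chromosomes (Rosa26 CreERT2/CreERT2). CreERT2 is a recombinase that tamoxifen activates, and the Rosa26 locus is active in nearly all cell types, so recombination is not confined to tumor cells by the promoter. Both groups carried the recombinase, and no tamoxifen group without floxed Etv1 was analysed, so tamoxifen itself and loss of Etv1 cannot be told apart. The sources used here do not give doses, the time after treatment or the age of the mice. Nothing states that the libraries came from separate mice, and p-values then measure only the spread between these samples.

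Values are FPKM (fragments scaled by transcript length and by the fragments mapped in the library), so levels of different genes can be compared. Each library had 14176 to 14841 symbols at 1 FPKM or more, and the absolute read depth is unknown. Etv1 measured 34.9, 19.7, 31.4 and 17.4 FPKM in the tamoxifen libraries and 34.6, 51.1, 40.4 and 38.6 in the vehicle libraries. The value covers the whole gene, deleted exons or not. Tamoxifen replicate 1 lay within the vehicle range, and the difference did not pass the threshold of 0.05 (limma adjusted p = 0.13). Adjusted p-values are those of limma with Benjamini-Hochberg adjustment over all tested genes. The tissue label was borne out by the GIST genes Kit, Ano1, Etv1, Gpr20 and Prkcq, whose summed level was 920.0 to 1309 FPKM in tamoxifen and 1154 to 1715 FPKM in vehicle tumors. Means below are given ± SD over 4 libraries a group unless stated. In such bulk tissue, fewer cells of a type and less RNA per cell cannot be told apart.

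Stat2 and Irf9, partners in 1 transcription factor complex, fell to about the same extent in tamoxifen tumors, while the receptor and kinase genes did not pass the test. Of the 8 members with enough signal to test, 2 fell and 0 rose at a limma adjusted p under 0.05. That is 25.0% of the tested members, where 5.45% of all 15023 tested genes passed in either direction, 3.07% being lower and 2.38% higher. At an unadjusted p under 0.05 there were 3 members, Stat2, Irf9 and Jak2. The share of all tested genes at that p was not counted, so this count has no background beside it. The same 3 were those whose groups did not overlap, Jak2 being the one that was higher in tamoxifen, and such separation was seen in 15.1% of all tested genes (7.74% lower and 7.37% higher). The median log2 fold change of FPKM + 1 was -0.32 over the tested members and 0.01 over all tested genes. The plot of FPKM by library shows the 9 genes in pathway order.

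**Figure D1:**
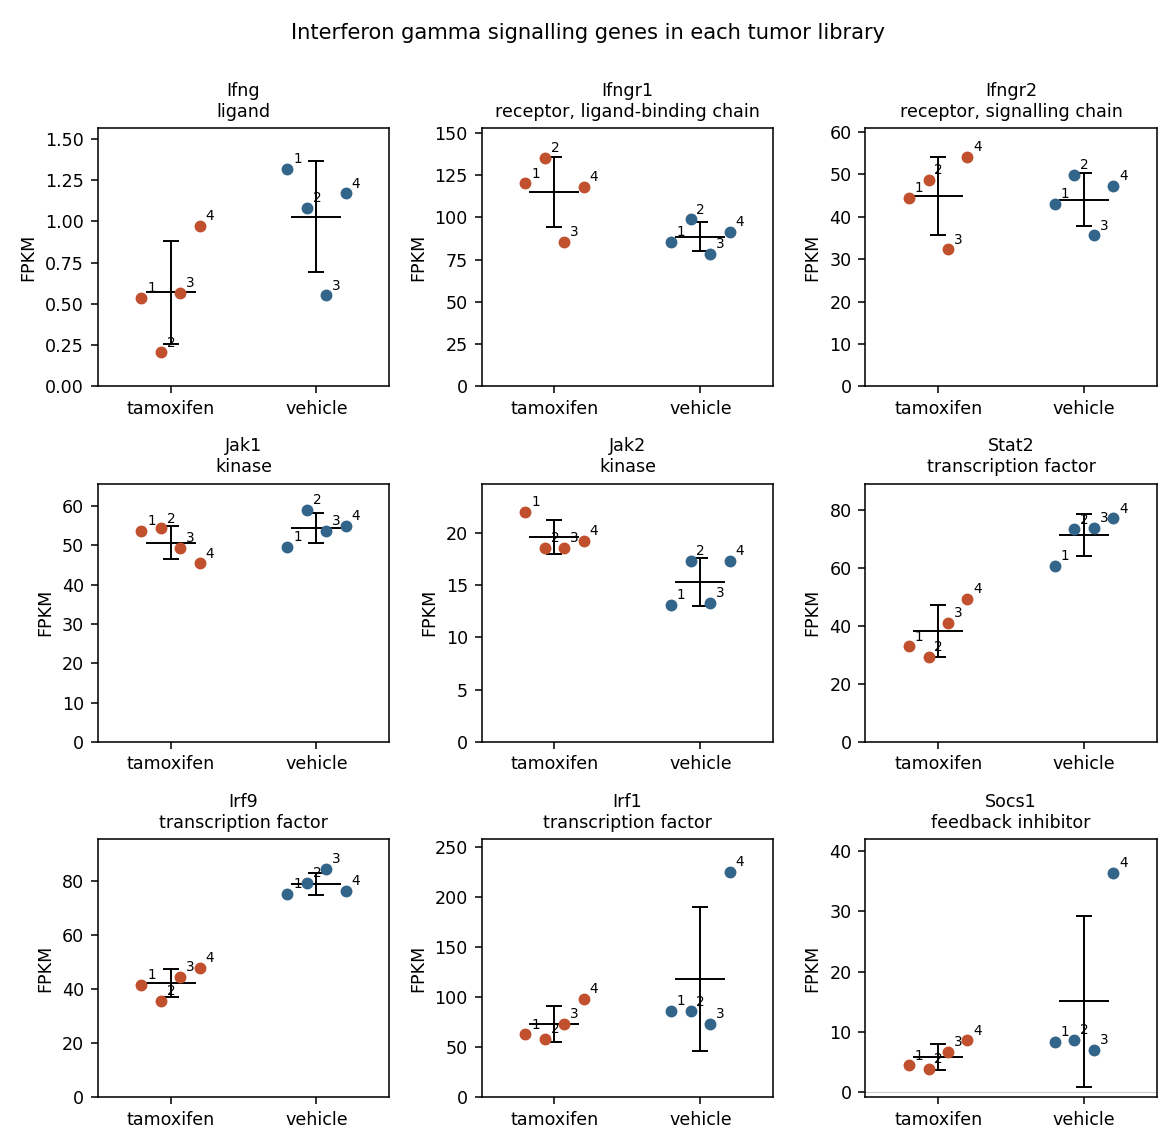
FPKM of the 9 genes in each library, tamoxifen left and vehicle right, with the replicate number beside each point; the horizontal bar is the mean and the whiskers the SD (n = 4 each), on axes that include 0. Stat2 and Irf9 separate the groups, and vehicle replicate 4 stands above all other libraries for Irf1 (225 FPKM) and Socs1 (36.4 FPKM).

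Ifng, the ligand (ENSMUSG00000055170, chromosome 10, 117878103 to 117882948 in mm9), was the least abundant member. It measured 0.538, 0.206, 0.567 and 0.971 FPKM in tamoxifen replicates 1 to 4 and 1.32, 1.08, 0.552 and 1.17 FPKM in vehicle replicates 1 to 4. The groups overlapped, because vehicle replicate 3 lay below tamoxifen replicates 3 and 4. Its mean was 0.570 ± 0.313 FPKM in tamoxifen and 1.03 ± 0.334 FPKM in vehicle tumors (SD, n = 4 each), and the exact 2-sided permutation p was 0.0857. With a mean under 1 FPKM over the libraries, Ifng was left out of the test across all genes.

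The genes of the cells that make interferon gamma were lower in the same libraries. The summed level of 12 T and NK cell genes was 125 to 150.0 FPKM in tamoxifen and 238 to 340.0 FPKM in vehicle tumors, and all 12 had a negative change, of which 9 fell past the threshold. None of the 12 was near 0 in every library. Ncr1 and Prf1 averaged 0.486 and 0.947 FPKM in tamoxifen tumors and passed the filter of 1 FPKM only through their vehicle values. Cd3e, part of the signalling complex on T cells, measured 8.10, 9.02, 8.45 and 7.95 FPKM in tamoxifen and 23.1, 17.2, 17.0 and 20.8 FPKM in vehicle tumors. Within each library, log2(FPKM + 1) of Ifng minus that of Cd3e was -2.60 ± 0.36 in tamoxifen and -3.34 ± 0.17 in vehicle tumors (SD, n = 4 each). The difference of 0.74 reached an exact permutation p of 0.0286, the smallest that 70 arrangements give, but the p was 0.0571 without any 1 vehicle library, and the size changed with the pseudocount of 1 FPKM. With no pseudocount, an alternative chosen after the data were seen, it was 0.23 (exact permutation p = 0.743). The part of the lymphocyte genes in the Ifng values was not tested.

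**Figure D2:**
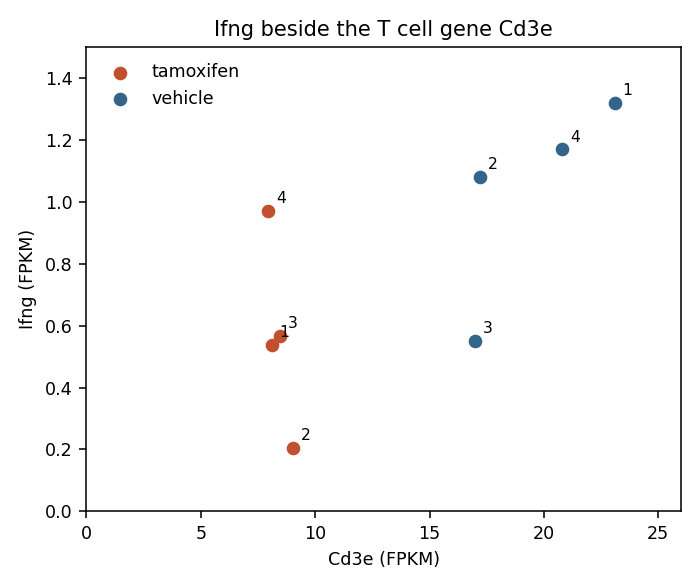
Ifng against the T cell gene Cd3e, both in FPKM, 1 point per library with its replicate number. Cd3e separates the groups at 7.95 to 9.02 FPKM in tamoxifen against 17.0 to 23.1 FPKM in vehicle tumors, while Ifng overlaps between them.

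In a list of genes known to induce interferon gamma, the 2 that passed were lower. The list, called inducers here, also holds Il18bp, an inhibitor of interleukin 18 (log2 fold change -0.24, limma adjusted p = 0.389). Of 10 tested genes of this list, 2 fell, 0 rose and 8 did not pass, with a median log2 fold change of -0.35, and 1 fell without vehicle replicate 1, 2 or 3. Over all tested genes, 3.07% fell. Il12rb1, a chain of the receptor for interleukin 12, fell to 1.72, 2.65, 3.80 and 3.19 FPKM in tamoxifen, against 9.29, 8.30, 8.28 and 11.1 FPKM in vehicle tumors (log2 fold change -1.44, SE 0.19, limma adjusted p = 0.00882). Eomes, a T-box factor of NK and cytotoxic T cells, averaged 0.524 ± 0.0319 FPKM in tamoxifen and 1.66 ± 0.202 FPKM in vehicle tumors (SD, n = 4 each) and fell (log2 fold change -0.80, SE 0.14, limma adjusted p = 0.0186). Its tamoxifen mean lay under the filter of 1 FPKM, so Eomes was tested only through its vehicle values. Stat4, which acts below the interleukin 12 receptor, averaged 2.56 ± 0.450 FPKM in tamoxifen and 4.26 ± 0.577 FPKM in vehicle tumors, and although its groups did not overlap it did not pass (limma adjusted p = 0.0592). The part of T and NK cells in these values was not tested.

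The receptor chains were abundant in every tumor. Ifngr1 (ENSMUSG00000020009, chromosome 10, 19311755 to 19330035) measured 120.0, 135, 85.6 and 118 FPKM in tamoxifen and 85.3, 98.7, 78.5 and 91.5 FPKM in vehicle tumors. Tamoxifen replicates 1, 2 and 4 lay above all vehicle libraries and replicate 3 within their range. The log2 fold change of 0.35 (SE 0.16) did not pass (limma adjusted p = 0.229). Ifngr2 (ENSMUSG00000022965, chromosome 16, 91547317 to 91565414) measured 44.5, 48.6, 32.3 and 54.2 FPKM in tamoxifen and 43.1, 49.8, 35.6 and 47.2 FPKM in vehicle tumors. These ranges overlapped almost entirely, with a log2 fold change of 0.02 (SE 0.18, limma adjusted p = 0.966). That sign turned negative when tamoxifen replicate 2, tamoxifen replicate 4 or vehicle replicate 3 was left out. By its level per length, Ifngr1 was above Ifngr2 in each library.

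Related receptors were mixed. Of 7 tested genes for other class II cytokine and interferon receptors, 1 rose, 1 fell and 5 did not pass, with a median log2 fold change of 0.07. Il20rb, a chain of receptors for the interleukin 20 group, rose to 2.93, 2.60, 3.48 and 3.19 FPKM in tamoxifen, against 0.792, 0.657, 0.751 and 1.72 FPKM in vehicle tumors (log2 fold change 1.06, SE 0.19, limma adjusted p = 0.0201). Ifnar2, a chain of the type I interferon receptor, fell to 42.8, 42.0, 43.6 and 43.4 FPKM in tamoxifen, against 66.3, 56.1, 52.7 and 61.6 FPKM in vehicle tumors (log2 fold change -0.45, SE 0.10, limma adjusted p = 0.0464). The groups did not overlap for either gene. The vehicle mean of Il20rb was 0.979 FPKM, under the filter of 1 FPKM, so it was tested only through its tamoxifen values. The list counted 1 higher and 0 lower genes without any 1 tamoxifen library or vehicle replicate 4, and 0 of either without vehicle replicate 1, 2 or 3. Il22ra1, the interleukin 22 receptor chain of epithelium, averaged 3.42 ± 2.08 FPKM in tamoxifen and 1.56 ± 0.610 FPKM in vehicle tumors (limma adjusted p = 0.218). The summed level of 7 intestinal epithelium genes was 910.0 to 2167 FPKM in tamoxifen and 444 to 718 FPKM in vehicle tumors, and 1 of the 7 rose past the threshold. The highest sum was that of tamoxifen replicate 4, the next being 1147 FPKM. The part of epithelium in these receptor values was not tested.

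Relative to Jak1, Jak2 was higher in tamoxifen tumors by a small amount, while neither kinase passed the test across genes. Jak1 (ENSMUSG00000028530, chromosome 4, 100741588 to 100937887) measured 53.6, 54.3, 49.3 and 45.4 FPKM in tamoxifen and 49.7, 59.0, 53.6 and 55.0 FPKM in vehicle tumors. Its spread was small, with a coefficient of variation of 8.16% in tamoxifen and 7.06% in vehicle tumors, and its log2 fold change was -0.10 (SE 0.11, limma adjusted p = 0.619). Jak2 (ENSMUSG00000024789, chromosome 19, 29326318 to 29387570) measured 22.0, 18.6, 18.6 and 19.2 FPKM in tamoxifen and 13.1, 17.3, 13.3 and 17.3 FPKM in vehicle tumors. All tamoxifen values lay above all vehicle values, yet the log2 fold change of 0.35 (SE 0.13) did not pass over all genes (limma adjusted p = 0.154). Within each library, log2(FPKM + 1) of Jak2 minus that of Jak1 was -1.32 ± 0.13 in tamoxifen and -1.77 ± 0.14 in vehicle tumors (SD, n = 4 each). This difference of 0.45 had an exact permutation p of 0.0286, the smallest possible. All 3 within-library differences computed had this p, so Benjamini-Hochberg adjustment over them could not change it. The difference was 0.40 to 0.51 when any 1 library was left out. The locus of Jak1 in the table is shared with Raver2, an RNA-binding protein gene at 10.6 FPKM on average, and with Gm12785 and small nuclear RNA genes, so its reads may not be its own alone.

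Other kinases and STAT factors did not pass. Of 7 tested genes (Jak3, Tyk2, Stat3, Stat4, Stat5a, Stat5b and Stat6), 0 passed in limma, with a list median of -0.10. Stat4 alone had an unadjusted p under 0.05, and the share of all tested genes at that p was not counted.

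GAS and ISRE are the elements the pathway is known for, and the promoters of Irf1, Stat2 and Socs1 are shown because they hold a match to one of them among the transcription factor and feedback genes. The windows are from RefSeq (GRCm38.p6, not the mm9 build of the expression table), 250 bases before to 50 after the annotated start, and all 9 members had at least 1. The motif searched for GAS was TTCNNNGAA, which is its own reverse complement. That for ISRE was TTTC, any 2 bases and TTTC again, searched on both strands, and a GAS and an ISRE may overlap. Capitals mark the matches. Irf1 is shown at chr11:53769764-53770063 (plus strand), Stat2 at chr10:128270248-128270547 (plus strand) and Socs1 at chr16:10785487-10785786 (minus strand).
Irf1: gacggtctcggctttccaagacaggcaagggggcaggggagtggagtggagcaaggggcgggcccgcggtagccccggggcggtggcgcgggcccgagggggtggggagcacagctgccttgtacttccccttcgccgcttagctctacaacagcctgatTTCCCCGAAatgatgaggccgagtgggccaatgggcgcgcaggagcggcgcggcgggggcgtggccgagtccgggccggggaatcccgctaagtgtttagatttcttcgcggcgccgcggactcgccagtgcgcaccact
Stat2: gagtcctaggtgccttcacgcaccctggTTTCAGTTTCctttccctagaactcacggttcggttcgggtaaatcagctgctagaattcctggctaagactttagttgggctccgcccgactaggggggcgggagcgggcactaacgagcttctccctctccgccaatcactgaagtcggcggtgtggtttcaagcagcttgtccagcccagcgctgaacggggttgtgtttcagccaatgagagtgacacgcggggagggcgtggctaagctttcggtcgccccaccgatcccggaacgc
Socs1: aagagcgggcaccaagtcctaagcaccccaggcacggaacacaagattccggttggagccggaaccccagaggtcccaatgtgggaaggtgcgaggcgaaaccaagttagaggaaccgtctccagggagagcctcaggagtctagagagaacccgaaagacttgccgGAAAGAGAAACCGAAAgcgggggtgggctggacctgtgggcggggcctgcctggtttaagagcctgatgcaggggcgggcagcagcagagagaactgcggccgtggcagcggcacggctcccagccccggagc
The Irf1 window holds 1 GAS match, TTCCCCGAA, from 90 to 82 bases before the start. The Stat2 window holds 1 ISRE match, TTTCAGTTTC, from 222 to 213 bases before the start, and the Socs1 window 2 overlapping ones, GAAAGAGAAA and GAAACCGAAA, from 83 to 68 bases before it. A GAS match was present in 8.30% and an ISRE match in 3.44% of all 32851 windows. Among the members, Irf1 and Ifng had a GAS match and Stat2 and Socs1 an ISRE match in at least 1 of their windows. The windows of the other members, Irf9 included, hold neither run of letters. A match is a run of letters and was not tested as a binding site.

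Stat2 (ENSMUSG00000040033, chromosome 10, 127707629 to 127729905) fell to 32.9, 29.3, 41.0 and 49.4 FPKM in tamoxifen, against 60.6, 73.3, 73.7 and 77.1 FPKM in vehicle tumors. The groups did not overlap, and the highest tamoxifen library, replicate 4, stood below the lowest vehicle library, replicate 1. The means were 38.2 ± 8.94 FPKM in tamoxifen and 71.2 ± 7.25 FPKM in vehicle tumors (SD, n = 4 each), a ratio of 0.536. The log2 fold change was -0.90 (SE 0.17, limma adjusted p = 0.0247). The call was lost without tamoxifen replicates 1 or 2 (limma adjusted p = 0.0563 and 0.0569) and without vehicle replicates 2, 3 or 4 (0.0737, 0.0777 and 0.0762), with the fold change between -1.03 and -0.79 over all 8 such fits. With libraries scaled to the same total FPKM the log2 fold change was -0.84, and the call was lost as well (limma adjusted p = 0.226).

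Irf9 (ENSMUSG00000002325, chromosome 14, 56210545 to 56228867), the DNA-binding partner of Stat2, fell to 41.4, 35.6, 44.5 and 47.8 FPKM in tamoxifen, against 75.2, 79.3, 84.3 and 76.4 FPKM in vehicle tumors. The groups did not overlap, and tamoxifen replicate 4, the highest of its group, lay far below vehicle replicate 1, the lowest of its own. The means were 42.4 ± 5.17 FPKM in tamoxifen and 78.8 ± 4.07 FPKM in vehicle tumors (SD, n = 4 each), a ratio of 0.537. The log2 fold change was -0.89 (SE 0.12, limma adjusted p = 0.00882), and the call held without any 1 library. With scaling to the same total FPKM the log2 fold change was -0.83, and the call was lost (limma adjusted p = 0.200). The Irf9 locus in the table is shared with Rnf31, a ubiquitin ligase gene, so the reads could be split between them. Rnf31 averaged 24.2 ± 3.67 FPKM in tamoxifen and 36.3 ± 5.03 FPKM in vehicle tumors (SD, n = 4 each) and did not pass (limma adjusted p = 0.0666).

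The sample identifier numbers fall into a lower and a higher range, and Stat2 and Irf9 were lower in tamoxifen within both. Among the lower numbers, with 2 tamoxifen and 3 vehicle libraries, the differences of mean log2(FPKM + 1) were -1.13 for Stat2 and -1.03 for Irf9. Among the higher numbers, with 2 tamoxifen libraries and vehicle replicate 4 alone, they were -0.76 for Stat2 and -0.71 for Irf9. The difference for Jak2 was 0.46 among the lower and 0.12 among the higher numbers. It was -0.43 and -1.40 for Irf1, and -0.80 and -2.13 for Socs1, the larger size being that against vehicle replicate 4. With 2 tamoxifen libraries and 1 vehicle library in the higher range, these values carry no test. The sources used here do not say what the number ranges stand for.

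Irf1 (ENSMUSG00000018899, chromosome 11, 53583516 to 53591876) measured 62.7, 58.1, 73.2 and 98.3 FPKM in tamoxifen and 86.5, 85.7, 73.4 and 225 FPKM in vehicle tumors. Vehicle replicate 4 stood far above the other vehicle libraries, tamoxifen replicate 4 lay above those 3, and tamoxifen replicates 1 to 3 lay below all vehicle libraries. The log2 fold change was -0.55 (SE 0.35, limma adjusted p = 0.395). Without vehicle replicate 4 it was -0.19 (SE 0.20, limma adjusted p = 0.657), with means of 73.1 ± 18.0 FPKM in tamoxifen (n = 4) and 81.8 ± 7.35 FPKM in vehicle tumors (SD, n = 3). The Irf1 locus overlaps that of Gm17334, which measured 2.25, 2.44, 2.40 and 2.61 FPKM in tamoxifen and 3.95, 4.74, 4.70 and 7.51 FPKM in vehicle tumors. Gm17334 fell (log2 fold change -0.83, limma adjusted p = 0.0342) and, like Irf1, was highest in vehicle replicate 4. Reads of these overlapping genes may not be told apart, and the sources used here do not say whether strand was used in the counting.

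Socs1 (ENSMUSG00000038037, chromosome 16, 10783901 to 10785629) showed the same library apart. It measured 4.41, 3.88, 6.66 and 8.56 FPKM in tamoxifen and 8.29, 8.61, 7.03 and 36.4 FPKM in vehicle tumors. Tamoxifen replicates 1, 2 and 3 lay below all vehicle libraries and replicate 4 within the vehicle range. The log2 fold change was -0.95 (SE 0.48, limma adjusted p = 0.291), and -0.43 without vehicle replicate 4 (SE 0.25, limma adjusted p = 0.397). With the range of the sample identifier numbers as a covariate it was -1.27 and passed (limma adjusted p = 0.0363), in a fit where that library was the only vehicle library of its range. Within each library, Socs1 minus Irf1 on the log2(FPKM + 1) scale was -3.45 ± 0.15 in tamoxifen and -3.05 ± 0.31 in vehicle tumors (SD, n = 4 each). That difference of -0.40 had an exact permutation p of 0.0286, which the adjustment over 3 could not change. It was -0.25 without vehicle replicate 4 (exact permutation p = 0.0571). It was -0.36 without tamoxifen replicate 1 and -0.35 without replicate 2 (exact permutation p = 0.0857 in each).

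**Figure D3:**
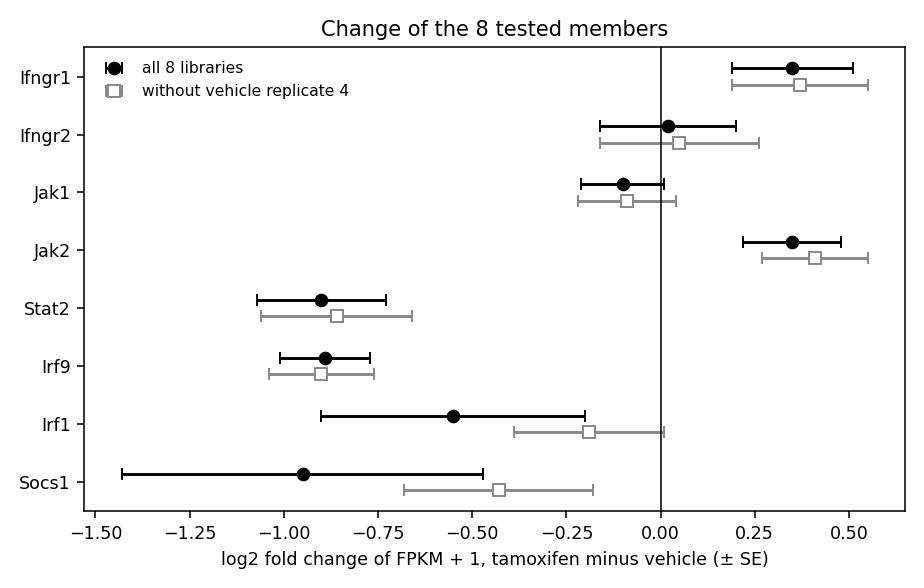
Log2 fold change of FPKM + 1, tamoxifen minus vehicle, with its SE, for the 8 tested members with all libraries (filled circles) and without vehicle replicate 4 (open squares). Without that library Stat2 and Irf9 are at -0.86 and -0.90, and Irf1 and Socs1 are at -0.19 and -0.43.

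The order of the levels per length differed in part between the groups. In tamoxifen tumors the means ran from Ifngr1 (115 FPKM) through Irf1 (73.1), Jak1 (50.7), Ifngr2 (44.9), Irf9 (42.4), Stat2 (38.2), Jak2 (19.6) and Socs1 (5.88) to Ifng (0.570). The ranges of Ifngr1 and Irf1 overlapped, as did those of neighbours from Jak1 to Stat2, and the ranges of the other neighbours did not. In vehicle tumors the means ran from Irf1 (118) through Ifngr1 (88.5), Irf9 (78.8), Stat2 (71.2), Jak1 (54.3), Ifngr2 (44.0), Jak2 (15.3) and Socs1 (15.1) to Ifng (1.03). Neighbours from Irf1 to Stat2 overlapped there, as did Jak1 with Ifngr2 and Jak2 with Socs1. The first place of Irf1 and the overlap of Socs1 with Jak2 rested on vehicle replicate 4. Without it the vehicle means (n = 3) were 81.8 FPKM for Irf1 and 87.5 FPKM for Ifngr1. Those of Socs1 and Jak2 were then 7.98 and 14.6 FPKM.

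Genes with the most similar profiles over the libraries were found for Stat2, Irf9, Irf1 and Socs1. Likeness was taken as the root mean square difference over the 8 libraries between log2(FPKM + 1) values centred on each gene. For Irf1 the most alike genes were Daxx, a histone chaperone gene (0.213), Mx1, an antiviral GTPase gene (0.235), and Gpr18, a receptor gene (0.237). For Socs1 they were Mx1 (0.333), Batf2, an interferon-inducible transcription factor gene (0.340), and the B cell gene Fcrla (0.371). In vehicle replicate 4, Mx1 reached 37.6 FPKM and Batf2 reached 186 FPKM, against 11.1 to 16.8 and 60.2 to 72.0 FPKM in the other 3 vehicle libraries. The genes most like Stat2 were Odc1, which starts polyamine synthesis (0.070), Tcf19 (0.0917) and the RNA-editing gene Adar (0.114). Those most like Irf9 were Rcn1, a calcium-binding protein gene of the endoplasmic reticulum (0.0883), Ccdc69 (0.109) and the interferon-induced Ifi35 (0.113).

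**Figure D4:**
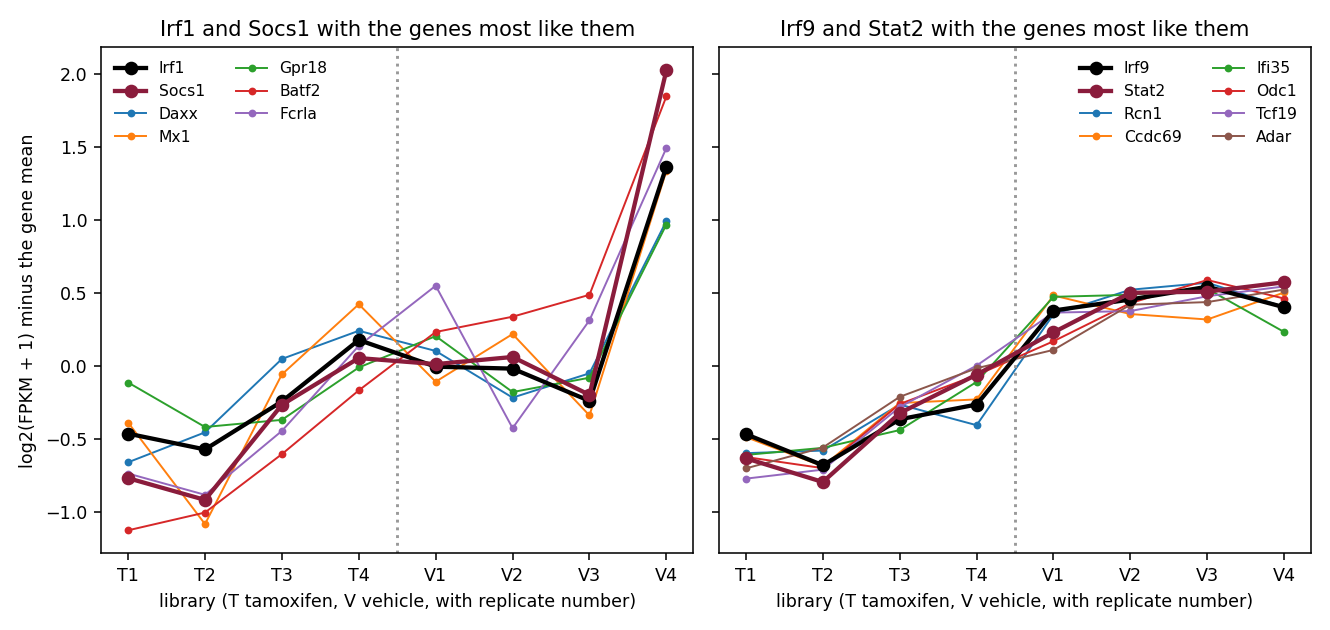
Log2(FPKM + 1) minus the gene mean in each library (T tamoxifen, V vehicle, with the replicate number) for Irf1 and Socs1, left, and Irf9 and Stat2, right, as thick lines, with the genes most like them as thin lines. Lines join libraries to guide the eye and mark no order; on the left vehicle replicate 4 stands highest, and on the right all vehicle libraries stand above all tamoxifen libraries for Irf9 and Stat2.

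The library with the highest value of its group differed between lists. Among tamoxifen libraries, replicate 4 was highest for 5 of the 8 tested members and 12 of 20 type I interferon antiviral genes, whereas for 31 interferon gamma target genes replicate 1 was highest in 14 and replicate 4 in 10. Among vehicle libraries, replicate 2 was highest for 4 of the 8 members and replicate 4 for 3. For the target genes vehicle replicates 2 and 4 were each highest in 13, and for the antiviral genes replicate 4 was highest in 11 and replicate 2 in 8. Over all tested genes, replicate 4 was highest for 20.8% in tamoxifen and 24.3% in vehicle tumors. Tamoxifen replicate 1 was highest for 5249 and vehicle replicate 2 for 4784 of the 14975 tested genes with all values, the largest counts of their groups. These are descriptions of libraries, and they carry no test.

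Many genes known as targets of interferon gamma were lower. Of 31 tested interferon gamma target genes, 17 fell, 0 rose and 14 did not pass, with 27 negative changes and a median log2 fold change of -1.16. In 22 of them the groups did not overlap, with tamoxifen lower, as in 7.74% of all tested genes. The count of 17 was 4 with scaling to the same total FPKM, 10 without tamoxifen replicate 2, vehicle replicate 2 or vehicle replicate 3, and 9 without vehicle replicate 4. Cxcl9, a chemokine for T cells, measured 47.1, 36.5, 45.0 and 35.9 FPKM in tamoxifen and 473, 631, 358 and 537 FPKM in vehicle tumors (log2 fold change -3.55, SE 0.19, limma adjusted p = 0.00018). Gbp6, a guanylate-binding protein gene, averaged 10.7 ± 2.26 FPKM in tamoxifen and 41.7 ± 11.5 FPKM in vehicle tumors (log2 fold change -1.85, SE 0.22, limma adjusted p = 0.0066). Igtp, an immunity-related GTPase gene, averaged 106 ± 13.6 FPKM in tamoxifen and 367 ± 101 FPKM in vehicle tumors (log2 fold change -1.75, SE 0.22, limma adjusted p = 0.0074). Gbp6 and Igtp have close paralogs, and reads shared with those make either value uncertain.

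Genes of the type I interferon response, which Stat2 and Irf9 are known to drive, were also lower where they passed. Of 20 tested genes, 10 fell, 0 rose and 10 did not pass, with 19 negative changes and a median of -1.11. The count was 2 with scaling to the same total FPKM. The part of either type of interferon in the target and antiviral lists was not tested. Oas2, an antiviral synthetase gene, averaged 17.8 ± 3.50 FPKM in tamoxifen and 61.8 ± 6.19 FPKM in vehicle tumors (log2 fold change -1.76, SE 0.16, limma adjusted p = 0.00426). Xaf1 averaged 75.2 ± 17.8 FPKM in tamoxifen and 200.0 ± 31.4 FPKM in vehicle tumors (log2 fold change -1.42, SE 0.20, limma adjusted p = 0.0106), while Ddx58, which senses viral RNA, averaged 48.7 ± 6.22 FPKM in tamoxifen and 111 ± 22.2 FPKM in vehicle tumors (log2 fold change -1.15, SE 0.17, limma adjusted p = 0.0118).

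Of the other interferon regulatory factors, 1 of 7 fell, 0 rose and 6 did not pass, with a median of -0.37, and without tamoxifen replicate 3 there was 1 that rose as well. Irf7, which amplifies type I interferon production, fell to 102, 116, 205 and 223 FPKM in tamoxifen, against 528, 437, 491 and 564 FPKM in vehicle tumors (log2 fold change -1.72, SE 0.27, limma adjusted p = 0.0134). Irf8, a factor of myeloid and dendritic cells, averaged 21.7 ± 6.00 FPKM in tamoxifen and 41.8 ± 13.2 FPKM in vehicle tumors and did not pass (limma adjusted p = 0.0724). Irf5, a factor of macrophages and other immune cells, averaged 29.8 ± 2.51 FPKM in tamoxifen and 38.8 ± 2.51 FPKM in vehicle tumors and did not pass (limma adjusted p = 0.0778).

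Of 12 tested negative regulators of the receptor and its kinases, 0 passed in limma, with a median of -0.14. An unadjusted p under 0.05 was reached by 4, without a counted share over all tested genes to set beside it. Usp18, which blocks the type I interferon receptor, had the smallest p and averaged 38.5 ± 11.5 FPKM in tamoxifen and 93.1 ± 33.1 FPKM in vehicle tumors (log2 fold change -1.24, SE 0.30, limma adjusted p = 0.0543).

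**Figure D5:**
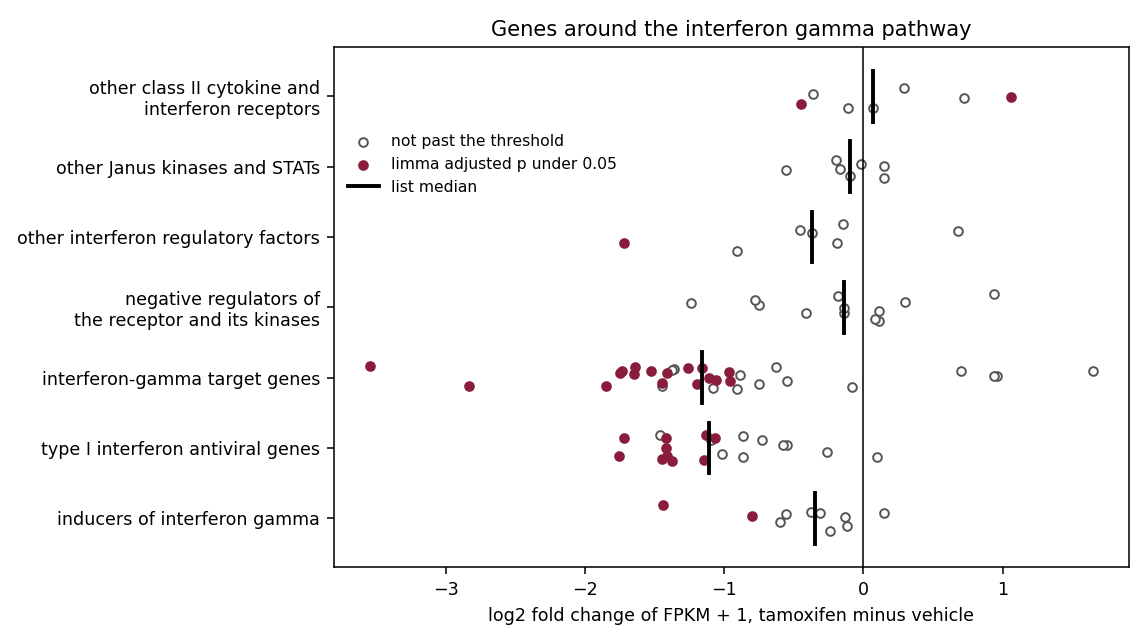
Log2 fold change of FPKM + 1, tamoxifen minus vehicle, of each tested gene in the 7 lists around the pathway; filled points passed at a limma adjusted p under 0.05 and the black bar is the list median. Target genes (median -1.16) and type I antiviral genes (-1.11) lie mostly below 0, and the lists of kinases, STATs and negative regulators lie around 0.

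Cell type marker levels differed between the same libraries. Besides the T and NK cell genes, the 6 dendritic cell genes summed to 11.3 to 18.5 FPKM in tamoxifen and 24.1 to 36.2 FPKM in vehicle tumors, and 2 of them fell. Of these 2, Xcr1 averaged 0.495 FPKM in tamoxifen tumors and passed the filter of 1 FPKM only through its vehicle values. Neutrophil genes summed to 180.0 to 470.0 FPKM in tamoxifen and 7.27 to 27.6 FPKM in vehicle tumors, with 4 of 5 tested genes risen. Of these 4, Retnlg averaged 0.641 FPKM in vehicle tumors and passed the filter only through its tamoxifen values. Of 5 endothelial genes 3 rose, with sums of 66.6 to 91.2 FPKM in tamoxifen and 39.9 to 49.7 FPKM in vehicle tumors. Among all tested genes, 2.38% rose and 3.07% fell. The summed macrophage and monocyte genes overlapped, at 491 to 1116 FPKM in tamoxifen and 548 to 808 FPKM in vehicle tumors. Of 9 tested, 0 passed and 2 had a negative change. Cd163 alone did not overlap, at 5.99 ± 4.28 FPKM in tamoxifen and 1.70 ± 0.390 FPKM in vehicle tumors (limma adjusted p = 0.0857). The mean log2 level differed with an exact permutation p of 0.0286 (0.04 adjusted over 7 lists) for T and NK cells, neutrophils, dendritic cells, epithelium and endothelium. It gave p = 0.314 for macrophages and 0.0571 for the GIST genes (exact permutation test, 0.314 and 0.0667 adjusted). The macrophage difference was 0.46, and 0.70 without tamoxifen replicate 3 (exact permutation p = 0.0286), and the epithelial p was 0.0571 without any 1 vehicle library (exact permutation test). The part of these cell types in the values of Stat2, Irf9 and the target genes was not tested.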

How the data were processed

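RNA from 8 cecal tumors, 4 tamoxifen and 4 vehicle, was sequenced. Groups and replicate numbers come from the sample titles, and each table column was matched by the identifier in the sample description, with 0 columns left unmapped. The deposited table gives gene-level FPKM with a status per value, in Cuffdiff's layout, per the file headers. STAR 2.3, Cufflinks, Cuffdiff and the mm9 build are named in the submitters' processing notes. The sources used here do not give annotation, strandedness or scaling between libraries, and depth is unknown. Locus starts are counted from 1.

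A total of 178 values with a failed or high-depth status, all listed at 0, were treated as missing, and rows were summed per symbol (34586 symbols). Genes with a mean of at least 1 FPKM and 2 estimates per group were tested (15023) with limma 3.58.1 in R 4.3.3 on log2(FPKM + 1), tamoxifen minus vehicle, with a mean-variance trend and 2-sided Benjamini-Hochberg adjusted p over all tested genes (threshold 0.05). The log2 scale with a pseudocount understates changes of low genes. Because the filter takes all libraries together, a gene under 1 FPKM in 1 group could pass through the other. Eomes, Il20rb, Ncr1, Prf1, Xcr1, Flt3 and Retnlg were among these genes. Ifng and within-library differences were compared by the exact 2-sided permutation test over 70 arrangements (smallest p 0.0286). The fit was first tested on simulated data with known changes.

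The members, gene lists and named genes were chosen with earlier results of these data known. Named list genes are the 3 with the smallest p where any gene of the list passed, otherwise 1, and profile neighbours are the 3 tested genes with the smallest root mean square difference. Lists share some genes (Irf7, Irf8, Socs3, Stat4), so their counts are not independent. Irf7, the 1 regulatory factor that fell, is also counted among the antiviral genes. One listed gene is not reported here. Socs2 and Irgm1 had too few estimates to test. Alternatives were other pseudocounts, filters and scalings, a replicate block, identifier range, array weights, failed values at 0 and leaving out each library.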

Additional observations from a re-analysis of the deposited data

Results flagged for a closer look

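The following values stood apart in their group of 4, with a gap to the nearest library past Dixon's critical value for 4 samples. Over 39 items and 78 groups checked, 7 did so, and chance flags about 1 in 20 groups. The items are not independent, so the 7 cannot be set against that rate. Batf2 was chosen for its likeness to Socs1 over these same libraries. Socs1 minus Irf1 is computed from genes that were flagged themselves. A group of 4 values came from vehicle replicate 4 and was high: Irf1 at 225 FPKM (73.4 to 86.5 in the other 3), Socs1 at 36.4 FPKM (7.03 to 8.61), Batf2 at 186 FPKM (60.2 to 72.0) and Il20rb at 1.72 FPKM (0.657 to 0.792). In the same library Socs1 minus Irf1 was -2.60 on the log2(FPKM + 1) scale, against -3.23 to -3.17 in the others. Among tamoxifen libraries, Jak2 was 22.0 FPKM in replicate 1 (18.6 to 19.2 in the others) and Il22ra1 was 6.50 FPKM in replicate 4 (1.94 to 2.68).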

How the results depend on the processing

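The number of genes called was 819, with 358 higher and 461 lower. The count was 544, 378, 450, 288, 268 and 274 without tamoxifen replicates 1 and 2 and vehicle replicates 1, 2, 3 and 4 in that order. It was 534 with a mean of at least 5 FPKM, 228 with scaling to the same total FPKM (153 higher and 75 lower), and 268 to 856 without 1 library. With the replicate number as a block it was 252. The numbers did not pair the samples, since deviations of same-numbered libraries correlated at -0.156 to 0.145 and 1 of the 4 numbers had its own number as its best match. The block gave Stat2 an adjusted p of 0.0522, and list counts of 8 for target genes, 3 for antiviral genes, 1 for inducers and 0 for receptors.

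Scaling to the same total gave adjusted p of 0.226 for Stat2 and 0.200 for Irf9 and counts of 4 targets, 2 antiviral genes, 1 inducer and 0 receptors, while the median of all tested genes was at 0.06 on the log2 scale. The identifier covariate gave Socs1 0.0363, and counts of 2 regulatory factors and 1 negative regulator, and array weights also gave 1 negative regulator. A mean of at least 5 FPKM gave 0 receptors and 1 inducer, and median-ratio scaling 1 receptor. For Ifng minus Cd3e, pseudocounts of 0.1 and 0.25 and none gave 0.37, 0.50 and 0.23. The cause of these changes was not tested.

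Without 1 library, adjusted p ran from 0.0175 to 0.0777 for Stat2, 0.0136 to 0.0332 for Irf9, 0.254 to 0.464 for Socs1, 0.308 to 0.657 for Irf1, 0.163 to 0.360 for Jak2, 0.561 to 0.812 for Jak1, 0.0651 to 0.458 for Ifngr1 and 0.530 to 0.982 for Ifngr2, whose sign turned in 3 of these fits. Counts ran from 0 to 1 for receptors, 1 to 2 for regulatory factors, 9 to 16 for targets, 7 to 12 for antiviral genes and 1 to 2 for inducers. The differences ran from 0.61 to 0.90 for Ifng minus Cd3e and -0.46 to -0.25 for Socs1 minus Irf1. Marker differences ran from 0.14 to 0.70 for macrophages and 0.73 to 1.18 for epithelium. Ifng was not run with the block, the covariate, the weights or the higher filter, because it was under the filter. Unknown depth limits what can be said of Ifng and other genes under 1 FPKM.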

Other observations

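Not every interferon gamma target gene was lower. Socs3, Nos2, Upp1 and Ido1, named after their values were seen, had positive log2 fold changes that did not pass. Socs3, a feedback inhibitor of several cytokine receptors, measured 11.6, 19.0, 25.5 and 25.1 FPKM in tamoxifen and 9.80, 8.92, 6.57 and 14.9 FPKM in vehicle tumors (log2 fold change 0.94, SE 0.29, limma adjusted p = 0.104). Nos2, the inducible nitric oxide synthase gene, measured 6.21, 10.2, 13.4 and 45.9 FPKM in tamoxifen and 6.39, 7.07, 1.13 and 3.37 FPKM in vehicle tumors (limma adjusted p = 0.159). Ido1, which degrades tryptophan, measured 3.36, 3.47, 16.7 and 33.9 FPKM in tamoxifen and 4.81, 4.40, 2.16 and 7.51 FPKM in vehicle tumors (limma adjusted p = 0.451). Tamoxifen replicate 4 was the highest of the 8 libraries for Nos2 and Ido1, and also for Upp1, a uridine phosphorylase gene (45.9 FPKM there and 7.38 to 16.9 FPKM elsewhere).

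Of the genes of interleukin 12 type cytokines, Il12a, Il12b and Il27 were too low for the test across genes and are given as values. Ebi3 was tested and did not pass (log2 fold change -0.31, limma adjusted p = 0.521). Il12b, a subunit of interleukins 12 and 23, was listed at 0.110, 0.219, 0.157 and 0.368 FPKM in tamoxifen and 0.627, 0.959, 0.391 and 0.945 FPKM in vehicle tumors, with no overlap. Such separation with tamoxifen lower was seen in 7.74% of all tested genes. Il12a, the other subunit of interleukin 12, was listed at 0.272 to 0.361 FPKM in tamoxifen and 0.0429 to 0.378 FPKM in vehicle tumors, which overlapped. Il27 also overlapped, at 0.223 to 0.398 FPKM in tamoxifen and 0.397 to 0.642 FPKM in vehicle tumors.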
